A study of Mus musculus with 12 samples.

Results

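The genes described here encode 8 chemokine receptors that guide helper T cells to their sites of action: Cxcr3, Cxcr6, Ccr2, Ccr4, Ccr8, Ccr6, Cxcr5 and Cxcr4. They were taken by gene symbol, with earlier results of these data known, from the 19752 genes of an array experiment on mouse CD4+ T cells, and each was measured by 1 probe set. Cells were isolated from spleens of male C57BL/6 mice, 6 weeks old, by depleting other cells, and all were activated with CD3/28 beads for 48 h. The groups were cells given IL-12 at 100 U/ml for 8 h (n = 4), cells given the same dose for 2 h (n = 5), cells kept untreated for 2 h (n = 2) and 1 baseline sample with no culture time. IL-12 is the cytokine that favours Th1 cells, the helper type that makes interferon-gamma. Nothing in the labels states that replicates are separate animals or cultures, so the p-values rest on a spread between arrays that may be technical.

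Chemokine receptors are G protein-coupled receptors that signal through Gi proteins and turn cells towards a source of chemokine. Each helper type is known for its own set. CXCR3, which binds CXCL9, CXCL10 and CXCL11, and CXCR6, which binds CXCL16, mark Th1 and other effector cells. CCR4, the receptor of CCL17 and CCL22, and CCR8, a receptor of CCL1, are tied to Th2 and regulatory T cells. CCR6, the receptor of CCL20, is tied to Th17 cells, and CXCR5, the receptor of CXCL13, brings follicular helper T cells and B cells into follicles. CCR2, which binds CCL2 and CCL7, is carried by monocytes and by effector T cells, and CXCR4, the receptor of CXCL12, is widely expressed.

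The arrays carry numbers in their titles, whose meaning the labels leave out. IL-12 arrays numbered 2 to 4 (2 at 8 h, 3 at 2 h) and those numbered 5 to 6 (2 and 2) form separate runs, and the untreated arrays 7 and 8 and the baseline array 5 were counted with the second run. Numbers 2 to 4 hold no untreated array. Of the 8 members, 6 differed between the runs in the fit across all genes, with 3 higher and 3 lower in arrays numbered 2 to 4 (limma adjusted p under 0.05); among all genes 24.3% did. The T cell genes Cd3d, Cd3e, Cd3g, Cd4, Cd5, Cd28 and Trat1 were brighter than the array median on all 12 arrays. So were the CD8 T cell marker Cd8b1, the B cell marker Cd79b and the NK cell marker Eomes, while Cd8a was on 0. The other NK cell markers, Ncr1, Klrb1c, Klra8, Klre1 and Klrg1, were brighter on 0 arrays. Of the other B cell markers Blk, Cd22, Ebf1 and Cr2 were brighter on 0, Cd79a and Pax5 on 1 and Ms4a1 on 6. The mean of Cd8a and Cd8b1 was 7.76 to 7.91 in numbers 2 to 4 and 8.07 to 8.39 in numbers 5 to 8. The part of such cells in the receptor results was not tested. Of 13 macrophage and monocyte markers 10 were dimmer than the array median on all 12 arrays, Adgre1 and Csf1r, which define that lineage, among them; Cd68 and Ctss were brighter on all 12 and Lyz2 on 7. Members differ in signal as well: Ccr4, Ccr8, Cxcr3, Cxcr4 and Cxcr6 were brighter than the array median on all 12 arrays, Ccr6 on 4, and Ccr2 and Cxcr5 on 0.

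**Figure D1:**
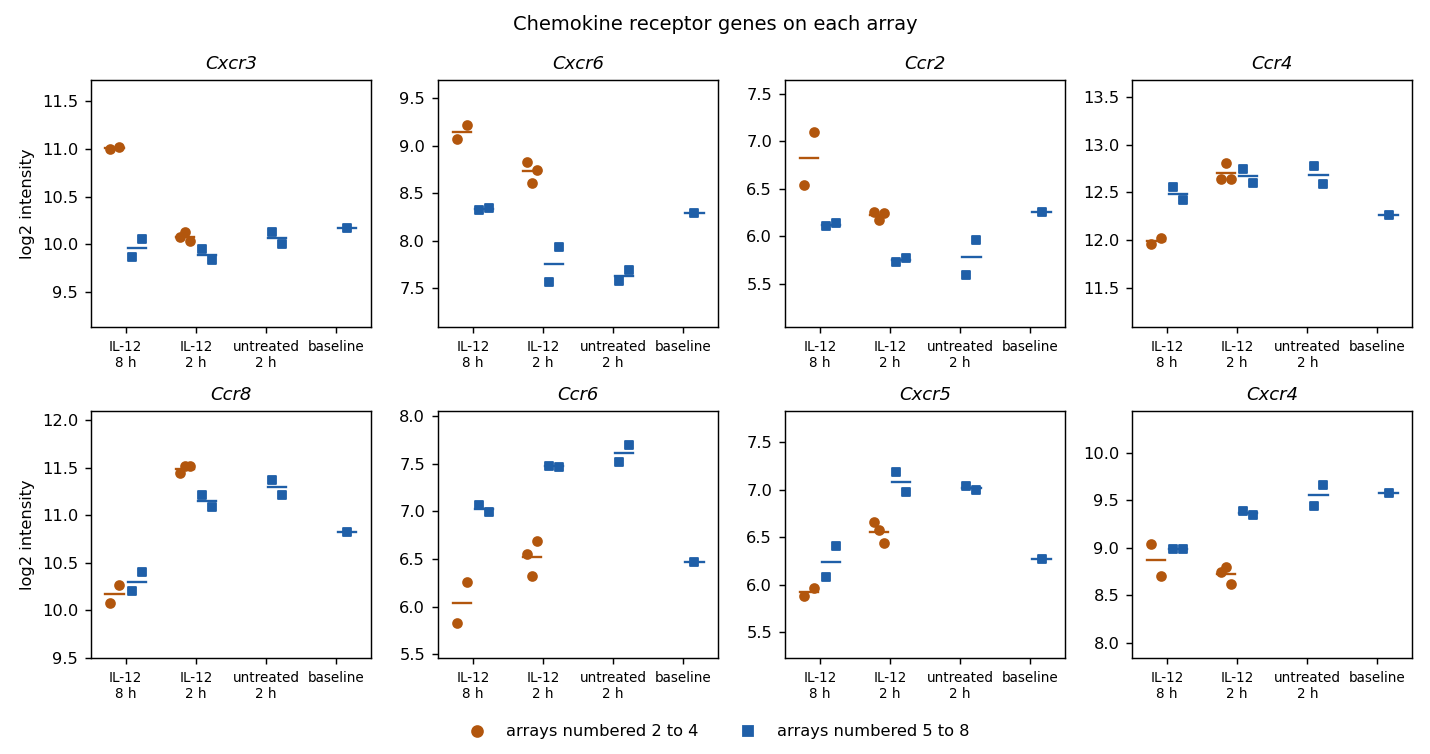
Log2 intensity of the 8 receptor genes on each of the 12 arrays, by group; circles are arrays numbered 2 to 4, squares arrays numbered 5 to 8, and short lines the mean of each group within a run. Ccr8 and Cxcr5 lie lower at 8 h of IL-12 than at 2 h in both runs, while the Cxcr3 arrays at 8 h average 11.01 in numbers 2 to 4 and 9.96 in numbers 5 to 6.

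Between 2 h and 8 h of IL-12 the receptor profile moved in both directions. Ccr8, Cxcr5, Ccr4 and Ccr6 fell, and Cxcr3, Cxcr6 and Ccr2 rose; Cxcr4 did not pass. These are 7 of 8 members called by limma at an adjusted p under 0.05, 3 higher and 4 lower, where 12.6% of all genes were called, 6.27% higher and 6.36% lower. The median log2 change of the 8 members was -0.28, against -0.01 over all genes. This comparison is the best replicated of the study, since both groups hold both runs. No group was left untreated for 8 h, so longer IL-12 and longer time in culture cannot be told apart here. In whole cell populations, fewer cells of a type and less RNA per cell cannot be told apart.

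Ccr8, the Th2-linked receptor, showed the largest change of the 8. Its log2 intensity was 10.08, 10.27, 10.20 and 10.40 on IL-12 8 h arrays 2, 3, 5 and 6, against 11.44, 11.52, 11.52, 11.21 and 11.09 on IL-12 2 h arrays 2 to 6. Every 8 h array lay below every 2 h array, as held for Ccr8, Ccr4 and Cxcr5 among the members and for 4.23% of all genes. Ccr8 fell 2.15-fold (log2 -1.10 ± 0.09 SE, limma adjusted p = 3.82e-06), with mean differences of -1.32 in numbers 2 to 4 and -0.85 in numbers 5 to 6.

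Ccr4, the other receptor of this type, had 11.96, 12.02, 12.56 and 12.42 at 8 h (arrays 2, 3, 5 and 6), against 12.64, 12.81, 12.64, 12.74 and 12.60 at 2 h. The groups did not overlap, but array 5 at 8 h came within a few hundredths of the lowest 2 h array. Ccr4 fell 1.39-fold (log2 -0.47 ± 0.10, limma adjusted p = 0.0052), by a mean of -0.71 in numbers 2 to 4 and -0.18 in numbers 5 to 6. Within numbers 5 to 8 alone it was not called (adjusted p = 0.532).

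Cxcr5, the follicle-homing receptor, had 5.88, 5.97, 6.08 and 6.41 at 8 h, against 6.66, 6.58, 6.44, 7.18 and 6.98 at 2 h. Again the groups did not overlap, and in each run the 8 h arrays were the lower ones. Cxcr5 fell 1.66-fold (log2 -0.73 ± 0.08, limma adjusted p = 5.05e-05). B cells also carry this receptor. In numbers 2 to 4 the mean log2 intensity of 8 B cell markers was 7.06 to 7.10 at 8 h. At 2 h it was higher there, at 7.16 to 7.20. In numbers 5 to 6 it was 6.77 to 6.86 at 8 h and 6.82 to 6.97 at 2 h, which overlap. Of the 8 markers 1 was called, lower. The part of that difference in the Cxcr5 result was not tested.

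Ccr6, the Th17-linked receptor, split by run before it split by time. At 8 h it had 5.82 and 6.26 in numbers 2 and 3 and 7.07 and 6.99 in numbers 5 and 6, against 6.55, 6.33 and 6.69 in numbers 2 to 4 and 7.48 and 7.47 in numbers 5 and 6 at 2 h. The groups overlap when runs are pooled and separate within each run. Ccr6 fell 1.38-fold (log2 -0.47 ± 0.09, limma adjusted p = 0.00381), and the change was -0.48 in the one run and -0.45 in the other. Within numbers 5 to 8 alone it was not called (adjusted p = 0.0597).

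Cxcr6, the effector receptor for CXCL16, went the other way. It had 9.07 and 9.21 in numbers 2 and 3 and 8.32 and 8.35 in numbers 5 and 6 at 8 h, against 8.83, 8.61 and 8.75 in numbers 2 to 4 and 7.57 and 7.94 in numbers 5 and 6 at 2 h. All 8 h arrays lay above all 2 h arrays of their own run. Cxcr6 rose 1.4-fold (log2 0.49 ± 0.08, limma adjusted p = 0.00114), by 0.41 in numbers 2 to 4 and 0.58 in numbers 5 to 6. The call was lost within numbers 5 to 8 alone (adjusted p = 0.0541).

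Ccr2 rose 1.41-fold (log2 0.49 ± 0.10, limma adjusted p = 0.00609) at a signal below the array median. It had 6.54, 7.10, 6.10 and 6.14 on 8 h arrays 2, 3, 5 and 6, against 6.26, 6.17, 6.24, 5.73 and 5.77 on 2 h arrays 2 to 6. Within each run the 8 h arrays were the higher ones, with 8 h array 3 standing highest. The change in numbers 5 to 6 was 0.37 and was not called within numbers 5 to 8 alone (adjusted p = 0.197). Monocytes carry this receptor as well; the mean of 13 macrophage and monocyte markers lay between 6.47 and 6.80 at 8 h and between 6.53 and 6.84 at 2 h, and 0 of them were called.

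Cxcr3, the Th1 receptor, separated the runs. At 8 h it had 11 and 11.02 in numbers 2 and 3 but 9.87 and 10.05 in numbers 5 and 6, against 10.08, 10.13 and 10.03 in numbers 2 to 4 and 9.95 and 9.83 in numbers 5 and 6 at 2 h. The 8 h minus 2 h difference was 0.93 in numbers 2 to 4, where the groups did not overlap, and 0.07 in numbers 5 to 6, where they did. In the fit of all arrays Cxcr3 rose 1.45-fold (log2 0.54 ± 0.13, limma adjusted p = 0.0136). This call was lost within numbers 5 to 8 (adjusted p = 0.865), with the title number as a replicate block (log2 0.49, adjusted p = 0.105), and without 8 h array 2 (adjusted p = 0.0679) or array 3 (adjusted p = 0.0758).

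The difference between the runs was tested as an interaction over the 9 IL-12 arrays. The change of Cxcr3 between 2 h and 8 h was larger by a log2 of 0.86 ± 0.12 in numbers 2 to 4 (limma adjusted p = 0.00272), and Cxcr3 was the only member called, where 1.96% of all genes were. Ccr4 (-0.53 ± 0.13, adjusted p = 0.0527), Cxcr4 (0.54 ± 0.14, adjusted p = 0.0839) and Ccr8 (-0.47 ± 0.13, adjusted p = 0.094) missed the threshold. Each of them passed when 1 array was left out: Ccr4 without 2 h array 5 (adjusted p = 0.0424), Cxcr4 without 8 h array 3 (0.0292) and Ccr8 without 8 h array 5 (0.0476). For Ccr6, Ccr2, Cxcr5 and Cxcr6 the interaction lay between -0.17 and 0.23, with adjusted p from 0.632 to 0.961.

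**Figure D2:**
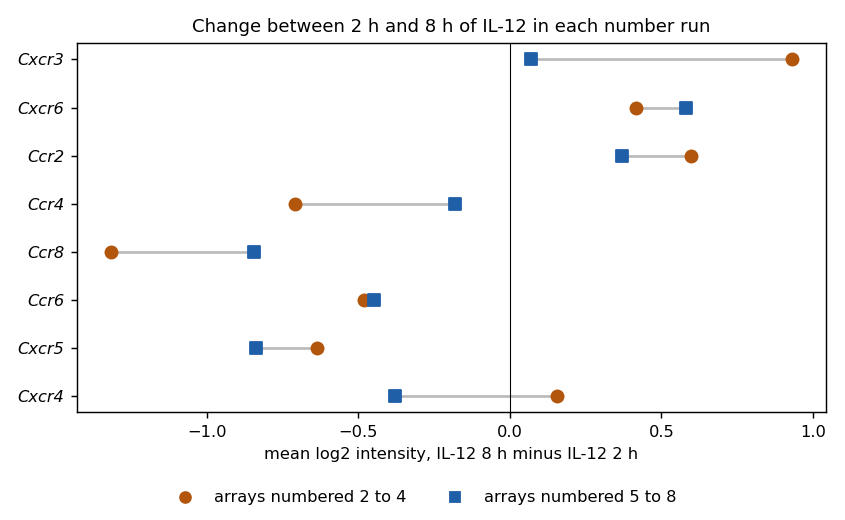
Mean log2 intensity at 8 h of IL-12 minus that at 2 h for each receptor gene, among arrays numbered 2 to 4 (circles) and 5 to 6 (squares). Cxcr3 stands at 0.93 and 0.07, Ccr6 at -0.48 and -0.45, and Cxcr4 at 0.16 and -0.38.

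Cxcr4 had 9.04, 8.71, 8.99 and 8.99 on 8 h arrays 2, 3, 5 and 6, against 8.74, 8.80, 8.63, 9.39 and 9.35 on 2 h arrays 2 to 6. The groups overlap, and the runs differ in sign, at 0.16 and -0.38. The fitted log2 change was -0.09 (95% interval -0.31 to 0.13, limma adjusted p = 0.691).

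Of the 8 receptors, 6 thus kept 1 direction without overlap in both runs, 4 lower (Ccr4, Ccr6, Ccr8 and Cxcr5) and 2 higher (Ccr2 and Cxcr6). Among all genes 8.75% were lower and 8.83% higher in this way. RefSeq's promoter table, which gives 250 bases before to 50 bases after a listed start site, held 7 of the 8 members, all but Cxcr5. The promoters of these 7 were searched on both strands for a STAT site (TTCNNNGAA), an AP-1 site (TGANTCA), a T-box site (GGTGTGA) and an NFAT core (GGAAA). Of all 32851 promoters in the table, 8.3% hold the STAT letters, 7.81% the AP-1 letters, 3.98% the T-box letters and 61.3% the NFAT core. A promoter of Ccr6 holds the STAT letters at 2 places, TTCAAAGAA and TTCCAAGAA, of which TTCCAAGAA overlaps an NFAT core, and a second Ccr6 promoter in the table holds neither. The Ccr4 promoter holds the AP-1 letters once. That window lies inside the gene, which spans 114490316 to 114505476, and not at its 5' end. The windows of Ccr2 and of the second Ccr6 promoter also lie inside their genes. None of the 7 members' promoters holds the T-box letters in this window. The sequences below, on GRCm38.p6, are those of these falling genes and of Ccr8 and Cxcr6, which moved in opposite directions in both runs and hold neither STAT nor AP-1 letters. Capitals mark the STAT and AP-1 matches.
Ccr6, chr17:8235793-8236092, plus strand: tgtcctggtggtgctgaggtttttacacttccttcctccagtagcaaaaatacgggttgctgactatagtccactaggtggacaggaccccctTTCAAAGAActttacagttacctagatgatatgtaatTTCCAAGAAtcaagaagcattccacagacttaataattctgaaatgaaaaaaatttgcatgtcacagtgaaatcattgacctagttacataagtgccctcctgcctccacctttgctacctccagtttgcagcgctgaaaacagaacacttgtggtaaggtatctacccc
Ccr4, chr9:114496495-114496794, minus strand: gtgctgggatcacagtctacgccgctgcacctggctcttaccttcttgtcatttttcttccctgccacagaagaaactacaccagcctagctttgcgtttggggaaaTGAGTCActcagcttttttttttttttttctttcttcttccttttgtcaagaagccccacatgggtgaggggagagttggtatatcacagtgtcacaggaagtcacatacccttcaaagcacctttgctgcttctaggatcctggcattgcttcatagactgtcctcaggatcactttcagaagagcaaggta
Ccr8, chr9:120091883-120092182, plus strand: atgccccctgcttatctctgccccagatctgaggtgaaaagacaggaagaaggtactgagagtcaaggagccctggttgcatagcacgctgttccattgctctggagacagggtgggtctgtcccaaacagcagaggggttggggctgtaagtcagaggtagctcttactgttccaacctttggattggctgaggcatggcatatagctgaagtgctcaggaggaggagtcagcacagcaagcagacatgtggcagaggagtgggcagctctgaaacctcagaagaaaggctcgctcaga
Cxcr6, chr9:123806227-123806526, plus strand: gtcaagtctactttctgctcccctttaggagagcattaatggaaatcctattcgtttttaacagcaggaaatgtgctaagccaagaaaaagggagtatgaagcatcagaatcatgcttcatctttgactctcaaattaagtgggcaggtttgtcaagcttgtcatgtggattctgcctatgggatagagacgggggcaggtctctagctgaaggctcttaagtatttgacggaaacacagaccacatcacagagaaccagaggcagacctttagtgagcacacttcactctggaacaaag

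Genes around the receptors moved in the same comparison, where 6.27% of all genes were called higher and 6.36% lower. Of the 14 ligand genes of these receptors 3 fell and 0 rose (median log2 -0.11), and all 3 encode CXCR3 ligands: Cxcl10 (log2 -1.56 ± 0.16, limma adjusted p = 2.97e-05), Cxcl11 (-0.76 ± 0.16, adjusted p = 0.0066) and Cxcl9 (-0.61 ± 0.14, adjusted p = 0.00944). With the title number as a replicate block the calls of Cxcl11 (adjusted p = 0.0621) and Cxcl9 (0.0616) were lost and that of Cxcl10 was kept, 1 of 14; the same pair was lost without a run term and within numbers 5 to 8. Like Cxcr3 the ligand genes differed between runs. Cxcl10 changed by -2.05 in numbers 2 to 4 and -0.98 in numbers 5 to 6, Cxcl11 by -1.27 and -0.15, and Cxcl9 by -0.99 and -0.15. The interactions were -1.07 ± 0.15, -1.12 ± 0.13 and -0.84 ± 0.13 (adjusted p = 0.0038, 0.000817 and 0.00629), opposite in sign to that of Cxcr3. Ccl1, a ligand of CCR8, was the other ligand gene with a called interaction (-0.58 ± 0.11, adjusted p = 0.0179).

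Cxcl11 had 6.75 and 6.59 in numbers 2 and 3 and 6.47 and 6.45 in numbers 5 and 6 at 8 h, against 7.87, 7.87 and 8.07 in numbers 2 to 4 and 6.66 and 6.56 in numbers 5 and 6 at 2 h. The high values are the 3 arrays of numbers 2 to 4 at 2 h. Cxcl9 had 10.22 and 10.08 in numbers 2 and 3 at 8 h and 8.84 and 8.64 in numbers 5 and 6, against 11.04, 11.22 and 11.19 and then 8.93 and 8.85 at 2 h.

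**Figure D3:**
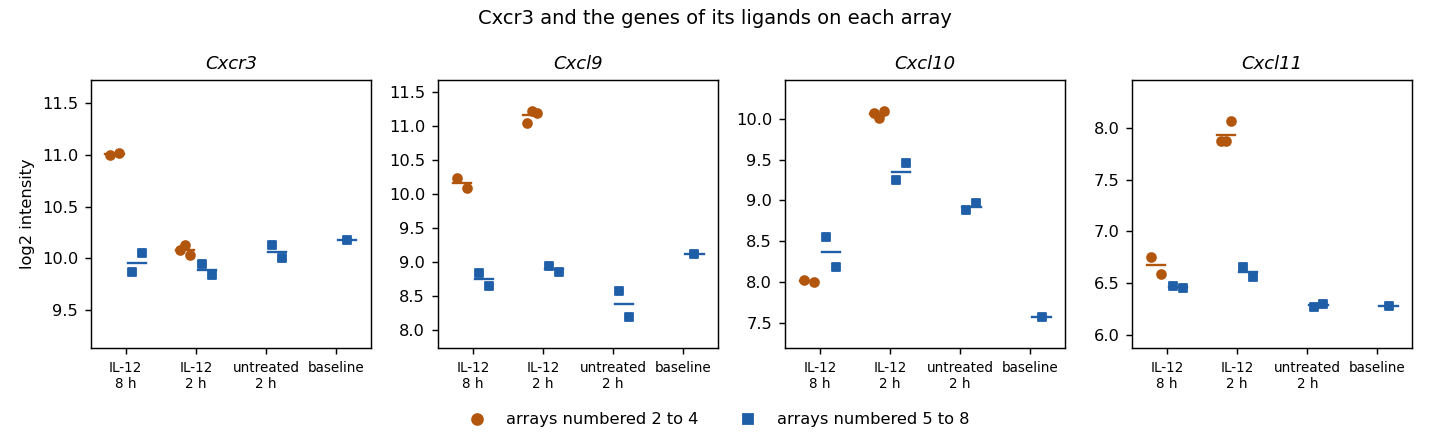
Log2 intensity of Cxcr3 and of Cxcl9, Cxcl10 and Cxcl11, the genes of its ligands, on each array by group; circles are numbers 2 to 4, squares numbers 5 to 8, short lines group means within a run. In numbers 2 to 4 the ligand genes are high at 2 h of IL-12 and Cxcr3 is high at 8 h.

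Among 17 other chemokine and related receptor genes 6 fell and 0 rose between 2 h and 8 h (median log2 -0.06). For this and the next lists the shares over all genes were 6.36% lower and 6.27% higher. Gpr183, an oxysterol receptor that positions lymphocytes, fell most reliably (log2 -0.71 ± 0.06, limma adjusted p = 6.34e-06), followed by Ccrl2 (-1.0 ± 0.13, adjusted p = 0.000199), the gut-homing receptor gene Ccr9 (-0.58 ± 0.11, adjusted p = 0.00366) and Ccr3 (-0.31 ± 0.09, adjusted p = 0.0262). The call of Ccr3 was lost in 9 of 24 alternatives, among them within numbers 5 to 8 (-0.06, adjusted p = 0.889) and with the replicate block (adjusted p = 0.147), and that of Ccr9 in 2 of 25. With the replicate block 3 of the 17 receptors fell. Gpr183 and Ccrl2 were called in all 25 alternatives. Of 25 genes of receptor signalling and desensitisation 5 rose and 5 fell (median 0.12). Rgs2, Rgs16 and Rgs1, which speed the shutdown of G protein signals, fell by a log2 of 1.15 ± 0.10, 0.72 ± 0.08 and 0.63 ± 0.09, and Tiam1, a Rac activator, by 0.42 ± 0.06 (adjusted p between 4.3e-06 and 0.000571). Of 21 other homing, adhesion and egress genes 5 rose and 5 fell (median 0.10): Cd69, which retains cells by opposing the egress receptor S1PR1, fell (-1.14 ± 0.09, adjusted p = 1.49e-06), as did Cd44 (-0.63 ± 0.09) and Icam1 (-0.53 ± 0.09), while S1pr4 rose (0.64 ± 0.05, adjusted p = 5.13e-06). Of 14 regulators of the helper fates 1 rose and 4 fell (median -0.16); the largest fall was that of Ahr, a factor of Th17 and type 1 regulatory cells (-1.02 ± 0.16, adjusted p = 0.000728), with -1.52 in numbers 2 to 4 and -0.43 in numbers 5 to 6.

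**Figure D4:**
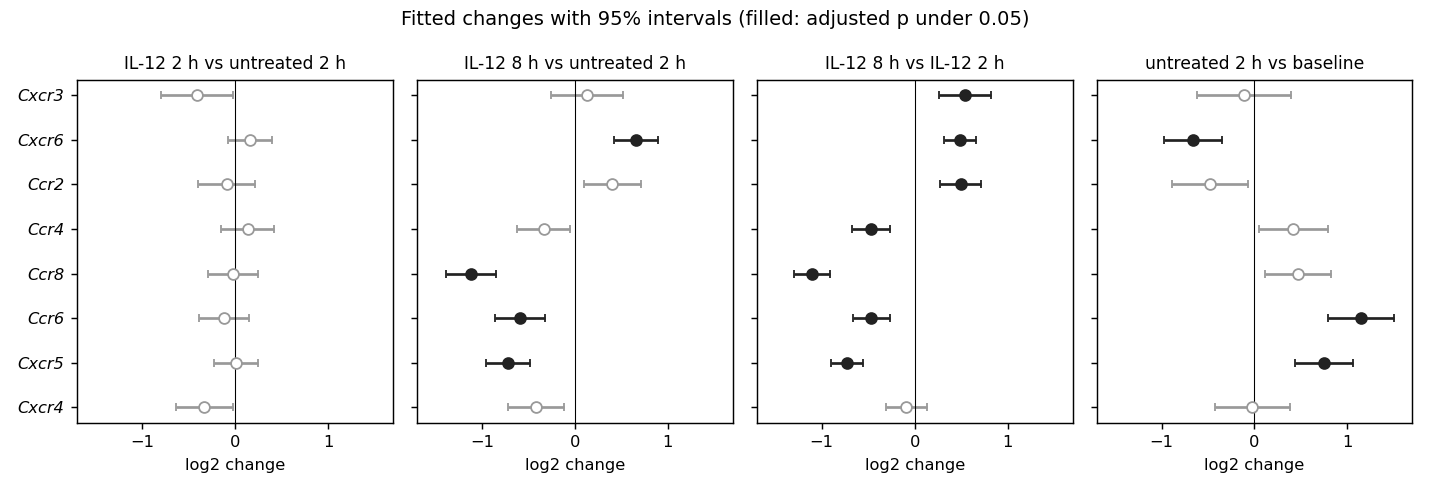
Fitted log2 change of each receptor gene in the 4 comparisons, first-named group minus second, with its 95% interval from the fit of all arrays; filled points passed an adjusted p under 0.05. None of the 8 passed at 2 h of IL-12 against untreated cells, and Ccr8 lies at -1.12 and -1.10 in both comparisons of 8 h.

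At 2 h of IL-12 against untreated cells of the same time, the direct test of the cytokine, 0 of the 8 receptors passed (limma), where 0.0709% of all genes did. At an unadjusted p under 0.05 there were 2, Cxcr3 (log2 -0.41, 95% interval -0.79 to -0.02, adjusted p = 0.99) and Cxcr4 (-0.33, interval -0.64 to -0.02, adjusted p = 0.98). Cxcr4 had 8.74, 8.80, 8.63, 9.39 and 9.35 on IL-12 2 h arrays 2 to 6, against 9.44 and 9.66 on untreated arrays 7 and 8. All treated arrays lay below both untreated ones for Cxcr4 and Ccr6, as for 5.33% of all genes, but in the shared run the mean difference of Cxcr4 was -0.18. For Cxcr3 that within-run difference was -0.17; the fitted value uses a run term that the 8 h arrays also set. The other 6 had fitted changes between -0.12 and 0.16. Their 95% intervals lay between -0.40 and 0.42. Of the related lists, 0 of 17 other receptors, 0 of 14 ligand genes, 0 of 25 signalling genes, 0 of 21 homing genes and 0 of 14 regulators passed; the smallest adjusted p was that of Tbx21 (log2 0.56 ± 0.10, adjusted p = 0.0705), the Th1 regulator that activates Cxcr3. Tbx21 passed in 3 of 24 alternatives, with a trended robust prior (adjusted p = 0.0328), with a random replicate block (0.0461) and without IL-12 2 h array 6 (0.0167).

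After 8 h of IL-12, against cells left untreated for 2 h, 3 receptors fell and 1 rose, where 3.16% of all genes were called, 2.13% lower and 1.04% higher (limma adjusted p under 0.05). Time in culture differs here together with IL-12, and the untreated arrays are those of the 2 h comparison. Ccr8 fell 2.17-fold (log2 -1.12 ± 0.13, adjusted p = 0.000165), with all 4 treated arrays at or below 10.40 against 11.37 and 11.22 in untreated cells. Cxcr5 fell 1.65-fold (log2 -0.72 ± 0.11, adjusted p = 0.00212), with arrays between 5.88 and 6.41 at 8 h against 7.04 and 7.00 in untreated cells. Ccr6 fell 1.51-fold (log2 -0.59 ± 0.13, adjusted p = 0.0186); its arrays stood between 5.82 and 7.07 at 8 h, against 7.52 and 7.69. Cxcr6 rose 1.57-fold (log2 0.65 ± 0.11, adjusted p = 0.00455), with 8.32 to 9.21 at 8 h against 7.57 and 7.70.

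The changes in the shared run, where 8 h arrays 5 and 6 face untreated arrays 7 and 8, were -0.99 for Ccr8, -0.78 for Cxcr5, -0.58 for Ccr6 and 0.70 for Cxcr6. There 5 members lay lower without overlap (Ccr4, Ccr6, Ccr8, Cxcr4 and Cxcr5) and 2 higher (Ccr2 and Cxcr6), where 19.3% of all genes were lower and 18.9% higher. The call of Ccr6 was lost without 8 h array 6 (limma adjusted p = 0.0546), untreated array 7 (0.0554) or untreated array 8 (0.162), and that of Cxcr6 without untreated array 7 (0.0607). Cxcr4 had a log2 change of -0.42 ± 0.14 (adjusted p = 0.153), Ccr2 0.40 ± 0.14 (0.177), Ccr4 -0.34 ± 0.13 (0.234) and Cxcr3 0.13 ± 0.18 (0.835). Cxcr4 passed within numbers 5 to 8 (-0.56, adjusted p = 0.0271) and without 8 h array 2 (-0.49, adjusted p = 0.0308). Ccr4 stood between 11.96 and 12.56 at 8 h, against 12.77 and 12.59 in untreated cells, and Ccr2 between 6.10 and 7.10, against 5.59 and 5.97. In the shared run the mean of the macrophage and monocyte markers was 6.70 to 6.80 at 8 h against 6.81 and 6.94 in untreated cells. Of the 13 markers 0 were called, and their part in these results was not tested.

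Other receptors fell as well at 8 h against untreated cells: 4 of 17, and 0 rose. Over all genes 2.13% were called lower and 1.04% higher here. The 4 that fell are named next. They were Ccrl2 (log2 -1.0 ± 0.18, limma adjusted p = 0.0069), Ccr9 (-0.79 ± 0.16, adjusted p = 0.0122), Gpr183 (-0.42 ± 0.09, adjusted p = 0.0168) and Cmklr1, the chemerin receptor gene (-0.33 ± 0.08, adjusted p = 0.0422). The call of Cmklr1 was lost in 15 of 24 alternatives. Leaving out untreated array 7 left 0 of the 17 called and leaving out array 8 left 1. With macrophage markers in the model, or with baseline and untreated arrays pooled, 0 were called. The mean of the macrophage markers nearly repeats the run, so the fit with it can hardly separate it from the run. Ligand genes had 0 calls of 14, with Cxcl10 closest (-0.85 ± 0.22, adjusted p = 0.0559) and Cxcl16, which encodes the CXCR6 ligand, at -0.24 ± 0.10 (adjusted p = 0.286). In signalling 3 of 25 fell, Rgs16 (-0.91 ± 0.11), Rgs2 (-1.01 ± 0.13) and Tiam1 (-0.47 ± 0.09), with adjusted p between 0.000408 and 0.00813. Of the 21 homing genes Cd69 (-0.94), Cd44 (-0.57) and the integrin gene Itga1 (-0.38) fell and S1pr4 rose (0.35). Itga1 lost its call in 18 of 23 alternatives and Cd44 and S1pr4 in 7 of 24 each, and 1 of the 21 was called without untreated array 7 or without untreated array 8. Of the 14 regulators Gata3, the Th2 regulator, fell (-0.49 ± 0.12, adjusted p = 0.0391) and Tbx21 rose (0.40 ± 0.10, adjusted p = 0.0406). Both lie close to the threshold and each lost its call in 14 of 24 alternatives, within numbers 5 to 8 (adjusted p = 0.187 and 0.127) and without either untreated array among them.

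Untreated cells at 2 h differed from the 1 baseline array in 3 receptors when that array was counted with numbers 5 to 8: Ccr6 and Cxcr5 rose and Cxcr6 fell, where 6.28% of all genes rose and 3.96% fell (limma adjusted p under 0.05). Ccr6 had 7.52 and 7.69 in untreated cells against 6.47 at baseline (log2 1.14 ± 0.17, adjusted p = 0.000615). Cxcr5 had 7.04 and 7.00 against 6.27 (0.75 ± 0.15, adjusted p = 0.0045), and Cxcr6 7.57 and 7.70 against 8.30 (-0.66 ± 0.15, adjusted p = 0.01). With the baseline array counted with numbers 2 to 4, 0 of the 8 were called and these changes became 0.17, 0.32 and 0.24, so that Cxcr6 turned its sign. The mean of the B cell markers lay between 6.78 and 6.85 on the untreated arrays, against 7.29 on the baseline array, and between 7.06 and 7.20 on IL-12 arrays numbered 2 to 4; its part in these results was not tested. The number run and the culture step cannot be told apart for this array. The call of Cxcr6 was also lost without untreated array 7 (adjusted p = 0.0516), while Ccr8 (0.47) passed without 8 h array 6 (adjusted p = 0.045) and Ccr2 (-0.48) without 8 h array 3 (adjusted p = 0.0358).

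Under the same counting, Ccr8 (0.47 ± 0.17, adjusted p = 0.0935), Ccr4 (0.42 ± 0.18, adjusted p = 0.164) and Ccr2 (-0.48 ± 0.19, adjusted p = 0.138) missed the threshold, and Cxcr3 and Cxcr4 had -0.11 and -0.02. Larger differences lay in the signalling list, where 6 of 25 rose and 3 fell (limma): Rgs16 (log2 2.37 ± 0.15, adjusted p = 6.41e-07) and Rgs2 (2.26 ± 0.18, adjusted p = 3.74e-06) led. Rgs16 had 9.05, 9.30, 10.11 and 9.73 on IL-12 8 h arrays, 9.86, 9.81, 10.01, 10.69 and 10.61 on IL-12 2 h arrays, 10.89 and 10.78 on untreated arrays and 8.47 at baseline. The baseline array was thus the lowest of the 12 for this gene, in either run. Of the ligand genes Ccl20 (1.49 ± 0.27, adjusted p = 0.00287), Cxcl10 (1.35 ± 0.29, adjusted p = 0.00866) and Ccl1 (1.20 ± 0.19, adjusted p = 0.00119) rose and Ccl17 fell (-1.34 ± 0.15, adjusted p = 9.83e-05). Among the 17 other receptors Gpr183 (0.81 ± 0.11), Ccr9 (0.96 ± 0.21) and Ccrl2 (0.87 ± 0.24) rose, and 0 fell. Of 21 homing genes 3 rose, Cd69 (1.52 ± 0.16), Cd44 (1.07 ± 0.17) and Ptger4 (0.94 ± 0.17), and of 14 regulators Bcl6 (0.87 ± 0.15), which directs the follicular fate, Ahr (1.61 ± 0.29) and Foxo1 (0.43 ± 0.11) rose and Stat4 fell (-0.58 ± 0.10). Over all genes 6.28% rose and 3.96% fell. Most of these list calls depended on the run of the baseline array. Counted with numbers 2 to 4, it left 4 of 25 signalling genes called, Rgs16 (1.62), Rgs2 (1.31) and Rgs1 (1.16) among them, 1 of 14 ligand genes (Cxcl10, 1.58), 1 of 17 other receptors (Gpr183, 0.64), 2 of 21 homing genes, Cd69 (0.88) among them, and 0 of 14 regulators. Ccr9 then had 0.07, Ccl20 0.50, Ccl1 0.47, Ccl17 -0.57, Bcl6 0.47, Ahr 0.69, Foxo1 0.17 and Stat4 -0.24, with adjusted p from 0.186 to 0.976, while Ccrl2 (1.08, adjusted p = 0.0871), Ptger4 (0.69, 0.134) and Cd44 (0.62, 0.204) were not called either.

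**Figure D5:**
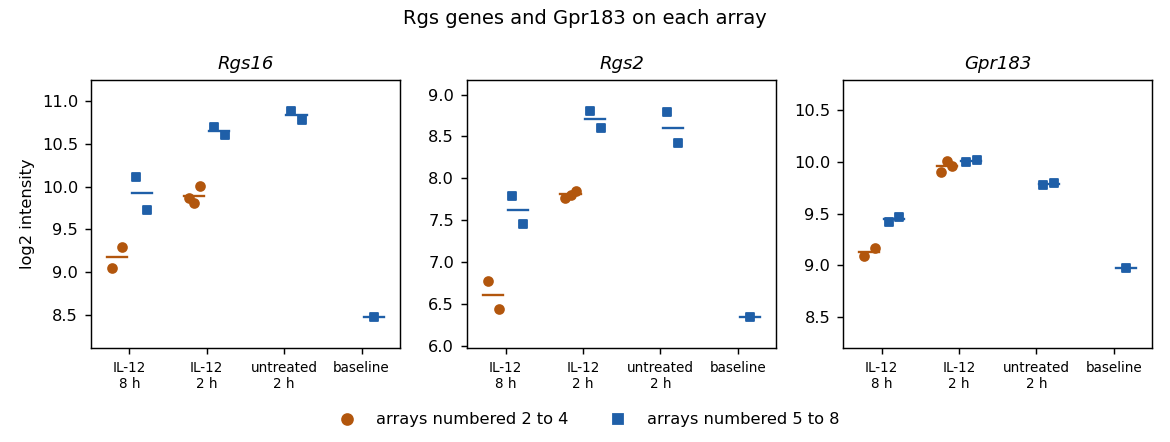
Log2 intensity of Rgs16, Rgs2 and Gpr183 on each array by group; circles are numbers 2 to 4, squares numbers 5 to 8, short lines group means within a run. For Rgs16 and Rgs2 the baseline array is the lowest point of all, and at 8 h of IL-12 the arrays of each run lie below those at 2 h.

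Between the number runs themselves, Ccr6 showed the largest difference among the receptors. It fell by 0.97 ± 0.09 on the log2 scale in arrays numbered 2 to 4 relative to those numbered 5 to 8 (limma adjusted p = 8.14e-06). Cxcr5 (-0.43 ± 0.08, adjusted p = 0.0015) and Cxcr4 (-0.40 ± 0.10, adjusted p = 0.0118) were lower too. Cxcr6 (0.90 ± 0.08, adjusted p = 5.53e-06), Cxcr3 (0.58 ± 0.13, adjusted p = 0.00511) and Ccr2 (0.58 ± 0.10, adjusted p = 0.00122) were higher in numbers 2 to 4, and Ccr4 (-0.21) and Ccr8 (0.13) did not pass. For Cxcr3 and Cxcr4 this term averages unlike differences. The Cxcr3 mean was 10.08 in numbers 2 to 4 against 9.89 in numbers 5 to 6 at 2 h. At 8 h it was 11.01 against 9.96. Cxcr4 had 8.72 against 9.37 at 2 h and 8.88 against 8.99 at 8 h. The call of Cxcr4 was lost without 2 h array 5 (adjusted p = 0.0555), and Ccr4 passed without 2 h array 6 (-0.30, adjusted p = 0.038). Among all genes 11.8% were higher and 12.5% lower. B cell markers were higher in numbers 2 to 4 in 4 of 8 cases and lower in 0, macrophage and monocyte markers higher in 1 of 13 and lower in 5, and NK cell markers lower in 4 of 6; their part in the run difference was not tested.

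In numbers 5 to 8, the run counted as holding all 4 groups, the levels of each receptor can be set in order by group mean. Baseline is 1 array, for which the number run and the culture step cannot be told apart. Its place in these orders is therefore uncertain. For Ccr8 the order was untreated (11.30), IL-12 2 h (11.15), baseline (10.82) and IL-12 8 h (10.30), with no overlap between neighbours, though the lowest untreated array and the highest IL-12 2 h array lay within about a hundredth of each other. Cxcr5 stood at 7.08 with IL-12 for 2 h and 7.02 untreated, which overlapped, then at 6.27 at baseline and 6.25 at 8 h, where the baseline value lay between the 8 h arrays. For Ccr6 the order was untreated (7.61), IL-12 2 h (7.47), IL-12 8 h (7.03) and baseline (6.47), without overlap. Cxcr6 ran the other way, with IL-12 8 h (8.34) and baseline (8.30) above IL-12 2 h (7.75) and untreated (7.64), the last pair overlapping. Cxcr4 was highest at baseline (9.57) and untreated (9.55), which overlapped, followed by IL-12 2 h (9.37) and IL-12 8 h (8.99). Ccr4 had 12.68 untreated and 12.67 with IL-12 for 2 h, which overlapped, above 12.49 at 8 h and 12.26 at baseline. Ccr2 had 6.26 at baseline and 6.12 at 8 h, above 5.78 untreated and 5.75 with IL-12 for 2 h, which overlapped. Cxcr3 stood between 9.89 and 10.18 in all 4 groups.

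Over the 12 arrays, with the fitted run term removed, the genes most like each called receptor were named from the brighter genes of the table (9496 searched for Ccr6). Arrays of the same group share their treatment, so these coefficients describe group patterns. The run term is 1 value per gene, so for Cxcr3 it leaves part of the run difference in place. Ccr8 was most like Slamf1, an adhesion and costimulatory receptor gene (Pearson r = 0.98), the stress factor gene Atf3 (0.98) and Plaur, the urokinase receptor gene (0.97). Cxcr5 was most like Bcor (0.98), which encodes a corepressor that binds BCL6, the histone demethylase gene Kdm6b (0.97) and Tmem67 (0.97). Ccr4 followed Plagl2 (0.99), the arginine transporter gene Slc7a1 (0.97) and Dhx33 (0.97), and Ccr6 followed Vezf1, Abhd13 and Herpud1 (0.96 to 0.97). Among the receptors that rose, Cxcr3 was most like Agfg2 (0.97), Fam189b (0.96) and Arfgap3 (0.96), Cxcr6 like Ccdc77 (0.96), Rars2 (0.95) and BC147527 (0.95), and Ccr2 like Mrpl42, Dhdds and Kyat3 (0.94 each). Between members, Cxcr5 and Cxcr6 were the most opposed (r = -0.91), and Ccr8 and Cxcr5 ran together (r = 0.88).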

How the data were processed

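RNA of 12 samples was measured on Affymetrix mouse gene arrays. The authors deposited linear intensity values of 24922 probe sets. They used RMA and Affymetrix Power Tools, per the submitters' processing notes, with versions, probe annotation and build not given in the sources used here. RMA corrects background, equalises array distributions and summarises probes, so a member's value is relative to its array.

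Values were log2-transformed. GEO's platform annotation gave 1 symbol for 21425 probe sets, and the brightest probe set stood for a gene, leaving 19752. All 12 arrays entered 1 limma model (limma 3.58.1, R 4.3.3: lmFit, eBayes, two-sided) with 4 group means and a number run term, with Benjamini-Hochberg adjustment over all genes and a threshold of 0.05. Changes are ± SE. The baseline group has 1 array, so its spread comes from the other groups. The interaction with the run was fitted on the 9 IL-12 arrays. The fit was tested on simulated data. Plots used matplotlib 3.10.9.

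Numbers 2, 3, 5 and 6 occur at both IL-12 times. Deviations from group means of same-numbered arrays correlated at 0.30 to 0.52. The best other number of the same run gave 0.41 to 0.50, and only for number 5 was the own number the best match. From group-by-run means the same-number values were -0.26 to 0.03. With 2 arrays at 8 h in each run these values mirror each other, so they cannot decide whether numbers are paired. Members and lists were chosen with earlier results of these data known. Named were all members, up to 4 called genes of each list with the smallest p (up to 2 where none was called), and the 3 genes most like each called member. Values of 0 columns belonged to other samples.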

Additional observations from a re-analysis of the deposited data

Results flagged for a closer look

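The change of Cxcr3 between 2 h and 8 h of IL-12 differed between the number runs: it was larger by a log2 of 0.86 in arrays numbered 2 to 4 (limma interaction, adjusted p = 0.00272), at 0.93 there and 0.07 in numbers 5 to 6. In the alternatives run, this interaction stayed between 0.77 and 0.95, with adjusted p from 0.000702 to 0.018. No array of either IL-12 group stood apart from its group for any of the 8 members, by Dixon's test at the 95% level in 16 groups, where chance alone gives about 1 in 20. The groups pool both number runs, and in a group that splits by run, as Cxcr3 does at 8 h, this test can hardly single out an array, so it says little there.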

How the results depend on the processing

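Of 1088 member results under the alternatives, 1029 kept their side of the threshold, 40 lost a call, 18 gained one and 1 turned a called sign; 32 uncalled ones changed sign. Without the number run term the members called became 2 when IL-12 8 h was set against untreated (4 with it), 3 when set against IL-12 2 h (7 with it), and 0 when untreated was set against baseline (3 with it); over all genes the counts were 243, 871 and 115, against 625, 2496 and 2022. Within numbers 5 to 8 the count for IL-12 8 h against 2 h was 2, with fewer arrays and 363 of all genes called. With the mean of macrophage markers added to the model the counts were 2 members and 102 of all genes for IL-12 8 h against untreated, 6 and 1387 for IL-12 8 h against 2 h, where Cxcr3 was lost (adjusted p = 0.0712), 0 and 106 for untreated against baseline, 0 (from 6) and 13 (from 4795) for the number run, and 2 (from 1) and 593 (from 387) for the interaction. The macrophage marker mean was 6.47 to 6.56 on arrays numbered 2 to 4 and 6.61 to 6.94 on those numbered 5 to 8. It thus nearly repeats the run, and a model with both can hardly separate them. With it the run differences of Ccr6 (-1.18), Cxcr6 (1.08), Cxcr5 (-0.75) and Cxcr4 (-0.60) were larger than without it. Those of Ccr2 (0.16) and Cxcr3 (0.33) were smaller. Pooling baseline with untreated arrays left 1 member for IL-12 8 h against untreated, Ccr8, and 90 genes. Counting the baseline array with numbers 2 to 4 left 0 for untreated against baseline, with 204 genes, and Cxcr6 turned to 0.24 there; group-by-run means, added after the data were seen, gave 5 and 2523 genes. The interaction count was 2 with log2(intensity + 16), 2 with 75th percentile scaling, 2 with the filter on dim genes and 3 with a trended robust prior, where 495, 354, 497 and 542 genes were called.

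Leaving out each array in turn gave 0 members for IL-12 2 h against untreated, 2 to 5 for IL-12 8 h against untreated, 6 to 7 for IL-12 8 h against 2 h, 2 to 4 for untreated against baseline, 5 to 7 for the run and 1 to 2 for the interaction. Over all genes these fits called 2 to 14, 267 to 663, 1525 to 2536, 1464 to 2222, 3710 to 4905 and 136 to 561. With the title number as a replicate block, 6 members and 1246 genes were called for IL-12 8 h against 2 h; Cxcr3 was the member lost, and no other member's call changed. As a random block it changed no member's call. Ccr8 and Cxcr5 kept their fall between 2 h and 8 h in all 25 alternatives, at -1.32 to -0.85 and -0.84 to -0.61. Of 480 list counts under the alternatives 74 moved by over 1.5 times. The number of arrays, 2 untreated and 1 baseline, and the dim signal of Ccr2 and Cxcr5 limit the precision.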

Other observations

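Of the 8 receptor genes 5 (Ccr2, Ccr4, Ccr8, Cxcr5 and Cxcr6) lie on chromosome 9 in RefSeq's GRCm38.p6 table, and the files name no build. The receptor genes Ccr9, Cxcr6, Xcr1, Ccr1, Ccr3 and Ccr2 lie there in this order, with other genes between some of them. This neighbourhood was picked after its values were seen. Between 2 h and 8 h of IL-12 its genes did not move together: Cxcr6 and Ccr2 rose (log2 0.49 each), Ccr9 and Ccr3 fell (-0.58 and -0.31), and Ccr1 (-0.16) and Xcr1 (-0.05) did not pass in limma's test (adjusted p = 0.25 and 0.726). Ccr1, Ccr3 and Xcr1 were dimmer than the median gene.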
